A study of Mus musculus with 26 samples.

Results

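Mitochondrial ribosomal protein genes were taken as every gene whose symbol is Mrpl or Mrps followed by a number and, in some cases, the letter a, b or c. This rule found 76 of the 21761 genes in the first count table and 77 of 21761 in the second, where Mrpl58 carries that symbol and not the older Ict1. All of them passed the filter on low counts in every comparison. Of the 76, 30 encode proteins of the large subunit with a counterpart in bacterial ribosomes, 19 encode large-subunit proteins found in mitochondria alone, 16 encode small-subunit proteins with a bacterial counterpart and 10 encode mitochondria-specific small-subunit proteins. Mrps36 is the remaining member: its product is now known as an adaptor of the 2-oxoglutarate dehydrogenase complex and not as a ribosomal protein. Mrps18a and Mrps30 belong to the large subunit despite their names.

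Mitochondria have their own ribosome, the mitoribosome, which translates the few proteins that mitochondrial DNA encodes. These proteins are core subunits of the respiratory chain and the ATP synthase. All mitoribosomal proteins are encoded in the nucleus, made in the cytosol and imported, and they assemble with mitochondrially encoded ribosomal RNA. When a naive T cell is activated it grows, divides and builds mitochondrial mass, and a supply of new mitoribosomes is part of that growth.

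The series measured polyadenylated RNA by RNA-seq in 26 libraries of mouse CD4+ T cells of the C57BL/6 background, from spleen and lymph nodes. In the first table, Foxp3-eGFP reporter mice of 5 to 6 weeks gave naive cells (CD4+, eGFP negative, CD25 negative, high CD62L, low CD44), Th0 cells made by culture with antibodies to CD3 and CD28, and induced regulatory T cells (iTregs) made with TGFβ, with TGFβ and vitamin C (VitC), with TGFβ and retinoic acid (RA), or with TGFβ, RA and VitC. Each of these 6 groups has 2 libraries. The same table holds Treg cells sorted directly from mice of 3 weeks as CD4+eGFP+ cells, with 4 libraries of mice with floxed Tet2 and Tet3 (Tet2fl/fl, Tet3fl/fl), the Foxp3-eGFP reporter and the CD4-Cre transgene (Tet2/3-deficient) and 4 of mice with the same floxed alleles and reporter but no Cre (control). CD4-Cre acts from thymic development onwards in all T cells of the alpha-beta lineage, so the deletion was not limited to Treg cells. In the second table, Foxp3-eGFP reporter mice of 12 to 14 weeks gave TGFβ iTregs sorted for Foxp3+ cells on day 6, and Foxp3- cells sorted on day 6 after such iTregs were stimulated again through CD3 and CD28, with 3 libraries each. The labels do not say whether replicates came from separate animals, so p-values measure the spread between these libraries, which may be partly technical.

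Total counts per library, rounded to 5 digits, were 9647700 to 11640000 for naive and cultured cells at 5 to 6 weeks, 13398000 to 17672000 for Tregs sorted from mice of 3 weeks and 11294000 to 17220000 in the second table. The 5 T cell markers (Cd3e, Cd3d, Cd3g, Cd4, Cd28) were above 1 CPM (counts-per-million, the count scaled by the library total) in every group of the first table. Foxp3 stood at 26.0 to 26.3 CPM in naive, 15.5 to 16.4 in Th0, 540 to 560 in TGFβ iTregs, 606 to 737 in control Tregs, 542 to 611 in Tet2/3-deficient Tregs, 302 to 338 in day 6 iTregs and 13.5 to 17.8 in restimulated Foxp3- cells. Whole-gene counts for Tet2 were 12.0 to 16.5 CPM in the Tet2/3-deficient libraries and 9.96 to 15.7 in controls, and for Tet3 96.3 to 114 against 126 to 172. The labels do not name the deleted exons, so whole-gene counts check the genotype only weakly.

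The promoters of 4 members are shown because these genes mark the patterns described further on: Mrpl28 and Mrpl51 had the highest fold changes in Th0 cells, Mrpl32 the highest in Tet2/3-deficient Tregs, and Mrps18b was lower in each comparison that added vitamin C. The sequences are the 250 bases before the annotated start, from RefSeq on GRCm38.p6, given 5′ to 3′ on the gene's strand. The counts themselves were made on mm9, so no position was carried over. Capitals mark the letters GCATGCGC (core of the NRF1 motif), CCGGAAG (motif of ETS factors such as GABPA), AAGATGGC (core of the YY1 motif) and CACGTG (E-box), on either strand.
Mrpl28, chr17:26123253-26123502, plus strand: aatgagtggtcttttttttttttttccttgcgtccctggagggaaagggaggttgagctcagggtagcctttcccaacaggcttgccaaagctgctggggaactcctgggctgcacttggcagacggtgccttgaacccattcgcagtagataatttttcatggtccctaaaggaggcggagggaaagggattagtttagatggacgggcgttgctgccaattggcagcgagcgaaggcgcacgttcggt
Mrpl51, chr6:125191950-125192199, plus strand: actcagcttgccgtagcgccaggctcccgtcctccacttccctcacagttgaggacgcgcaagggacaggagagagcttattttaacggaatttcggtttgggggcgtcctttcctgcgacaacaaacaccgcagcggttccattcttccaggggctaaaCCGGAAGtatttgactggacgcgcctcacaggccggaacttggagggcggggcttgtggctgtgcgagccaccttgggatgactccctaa
Mrpl32, chr13:14613038-14613287, minus strand: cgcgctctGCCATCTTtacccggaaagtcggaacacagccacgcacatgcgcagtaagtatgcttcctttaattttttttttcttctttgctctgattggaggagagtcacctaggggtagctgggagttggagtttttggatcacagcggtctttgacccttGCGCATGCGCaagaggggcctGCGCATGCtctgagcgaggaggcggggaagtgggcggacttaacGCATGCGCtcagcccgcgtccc
Mrps18b, chr17:35916441-35916690, minus strand: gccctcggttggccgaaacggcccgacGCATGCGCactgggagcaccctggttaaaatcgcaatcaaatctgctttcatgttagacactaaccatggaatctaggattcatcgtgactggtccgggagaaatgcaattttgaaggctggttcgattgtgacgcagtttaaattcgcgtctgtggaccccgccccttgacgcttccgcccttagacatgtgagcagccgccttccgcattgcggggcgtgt
None of these 4 motifs occurs in the stretch shown for Mrpl28. In the stretches shown, Mrpl51 holds a single ETS match and Mrps18b a single NRF1 match. Mrpl32 holds NRF1 matches at 3 places, of which 1 reads the same on both strands, together with a YY1 match on the reverse strand. Mrps18b has a further NRF1 match and an ETS match after its start, at positions 28 and 43, which are not shown.

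NRF1, GABPA and YY1 are transcription factors known for binding nuclear genes of mitochondrial proteins. A RefSeq window of 300 bases (250 before the start and 50 after it) was at hand for 67 of the 76 members, with 73 windows in all, and for 16524 genes of the table. CCGGAAG was present on either strand in 24 of 67 members (35.8%) and in 13.5% of all genes. AAGATGGC was present in 12 (17.9%) and 3.74%, and GCATGCGC in 8 (11.9%) and 4.18%. The E-box CACGTG, a motif of MYC among others, was in 5 members (7.46%) and 9.36% of genes, TATAAA in 5 (7.46%) and 14.4%, and CCAAT in 26 (38.8%) and 42.4%. TCAAGGTCA, the ERRA motif, was in 0 of 67 members and 0.351% of genes. At least 1 of the 3 leading motifs was found in 36 of the 67 members. The median log2 difference between Th0 and naive cells was 0.67 for the 24 members with CCGGAAG and 0.77 for the 43 without, 0.83 for the 12 with AAGATGGC and 0.70 for the 55 without, and 0.50 for the 8 with GCATGCGC and 0.81 for the 59 without. Between Tet2/3-deficient and control Tregs the medians were 0.24 both with and without CCGGAAG, 0.32 with and 0.24 without AAGATGGC, and 0.27 with and 0.24 without GCATGCGC. These differences were not tested. A match describes letters in a window and no binding was measured here.

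Levels of the members were compared per exon length, as FPKM (fragments scaled by exon length and by the library total). Over the 20 libraries of the first table the members had a median of 34.3 FPKM and ranged from 4.55 to 130.7. The highest were Mrpl30 at 130.7, Mrps21 at 128.8, Mrpl52 at 115, Mrps16 at 114.6 and Mrpl23 at 94.7 FPKM. The lowest were Mrps25 at 4.55, Mrpl17 at 6.30, Mrpl1 at 6.32, Mrps31 at 6.48 and Mrps22 at 6.504 FPKM. These are subunits of one particle that carries 1 copy of most of its proteins, yet their transcript levels per length spanned more than an order of magnitude. In the second table Mrps21 at 142 FPKM and Mrpl30 at 126 were again the highest, and Mrps25 at 4.26 and Mrpl1 at 4.60 the lowest. The ends of the order also differ in exon length: Mrps21 has 435 annotated exonic bases and Mrps25 has 6065. Members are short, with a median of 1191 exonic bases against 3229 for the 10225 genes with a mean of at least 1 FPKM.

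**Figure D1:**
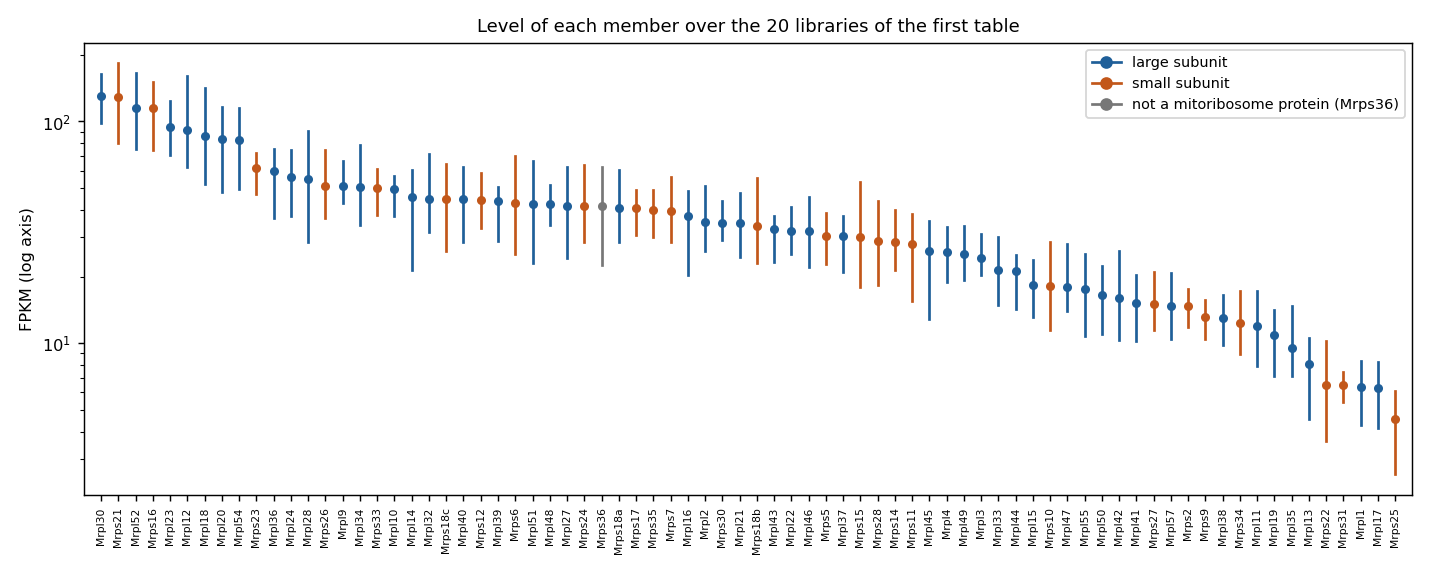
FPKM of each of the 76 members in the first table, on a log axis. Points are means over 20 libraries and bars run from the lowest to the highest library. Means run from 4.55 for Mrps25 to 130.7 for Mrpl30, and small-subunit members (orange) and large-subunit members (blue) lie interleaved.

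The balance of the 2 subunits hardly moved between groups. Members of the small subunit made up 32.4% to 34.3% of the summed FPKM of the mitoribosomal members in every library of both tables. The level of the whole set did move. Summed over members, naive cells held 2597 and 2723 CPM, Th0 cells 4510 and 4300, TGFβ iTregs 3428 and 3732, TGFβ+VitC iTregs 2924 and 3184, TGFβ+RA iTregs 3205 and 3830, and TGFβ+RA+VitC iTregs 3036 and 3410. Control Tregs held 3212 to 3472 and Tet2/3-deficient Tregs 3902 to 4036 CPM, which do not overlap. In the second table day 6 iTregs held 3223 to 3427 and restimulated Foxp3- cells 2730 to 2837 CPM, which do not overlap either. Naive cells were the lowest and Th0 cells the highest of the first table, and the pairs of TGFβ+RA and of TGFβ+RA+VitC libraries were the most spread. In bulk RNA, fewer cells that express a gene and less RNA per cell cannot be told apart.

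**Figure D2:**
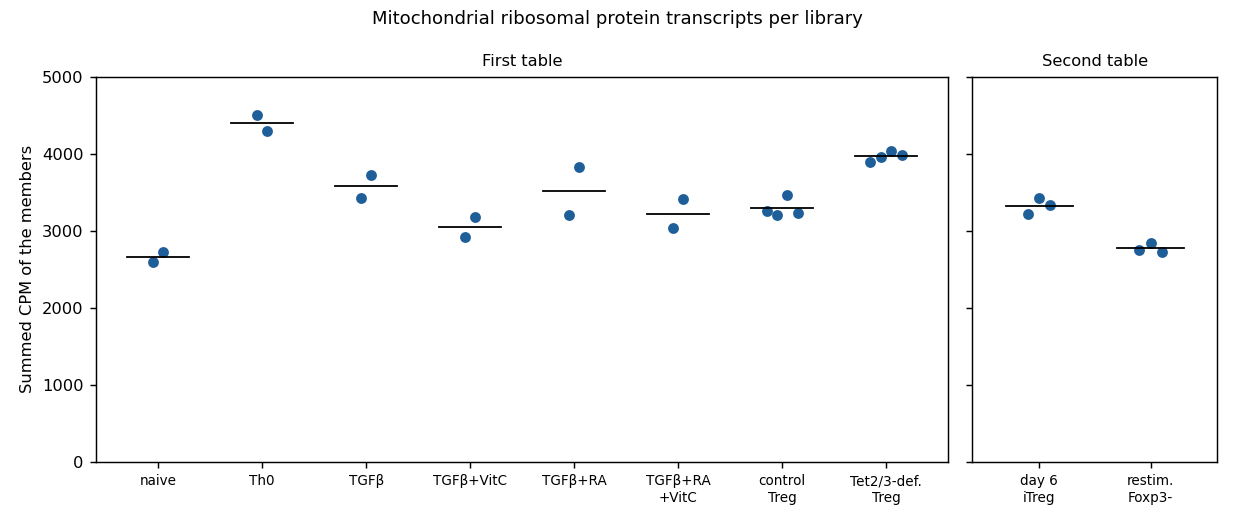
Summed CPM of the members in each library, by group, with the group mean as a line; the axis starts at 0. Th0 libraries (4300 and 4510) stand highest, naive libraries (2597 and 2723) lowest, and the 4 Tet2/3-deficient libraries (3902 to 4036) all lie above the 4 controls (3212 to 3472).

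Activation of naive cells went with a rise of nearly the whole set. In Th0 against naive cells, 65 of 76 members rose and 1 fell at an adjusted p under 0.05 (the quasi-likelihood test of edgeR, adjusted after Benjamini and Hochberg, as for each later call), with a median log2 difference of 0.74 (1.66-fold). Of all 11287 genes tested, 72.0% were called in either direction and 35.7% as higher, and the median of all genes was -0.01. In 74 of 76 members both Th0 libraries lay above both naive libraries, which 44.0% of all genes did. The rise covered 27 of 30 bacterial-type and 17 of 19 mitochondria-specific proteins of the large subunit, and 13 of 16 and 7 of 10 of the small subunit.

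Mrpl28, the large-subunit counterpart of bacterial L28, stood at 30.6 and 30.9 CPM in naive cells and at 97.8 and 94.9 in Th0 cells. Its log2 difference was 1.62 ± 0.12 (SE; adjusted p = 9.0e-09), the highest of the set. Mrpl51, a mitochondria-specific protein of the large subunit, went from 36.9 and 35.8 CPM to 103 and 93.7 (1.41 ± 0.11). Mrps22, a mitochondria-specific protein of the small subunit, went from 14.5 and 14.9 CPM to 36.2 and 41.0 (1.36 ± 0.14). Mrps15, a small-subunit protein with a bacterial counterpart, went from 32.1 and 37.3 CPM to 95.6 and 84.6 (1.35 ± 0.10). Mrpl18, a large-subunit protein with a bacterial counterpart, went from 49.97 and 50.06 CPM to 135 and 118 (1.31 ± 0.10). In these 5 members the naive and Th0 values lie far apart relative to the spread within each pair.

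The stalk of the large subunit, which recruits translation factors, is built on Mrpl10 and Mrpl12 beside Mrpl11, and these 3 did not rise alike. Mrpl12 rose from 59.0 and 63.9 CPM to 151 and 144 (log2 1.24 ± 0.15) and Mrpl11 by 0.87 ± 0.16. Mrpl10 rose by 0.25 ± 0.10 (adjusted p = 0.032), from 63.1 and 73.8 CPM to 81.3 and 85.1, and lost its call without naive replicate 1, without either Th0 replicate and with the length trend removed (adjusted p of 0.013 to 0.93 over the alternatives). Of the 3 paralogs of the bacterial protein S18, Mrps18c rose by 1.02 ± 0.19, Mrps18a by 0.98 ± 0.14 and Mrps18b by 0.71 ± 0.10. Mrpl45, which tethers the mitoribosome to the inner membrane, rose by 1.27 ± 0.10, and Mrpl44 by 0.59 ± 0.13. Mrps12, a protein of the decoding centre, rose by 0.53 ± 0.13, Mrps30 by 0.43 ± 0.09 and Mrps36, the dehydrogenase adaptor, by 1.29 ± 0.12.

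Mrpl24 was the single member that fell. It stood at 76.5 and 71.0 CPM in naive cells and at 55.4 and 56.0 in Th0 cells, a log2 difference of -0.43 ± 0.10 (adjusted p = 0.0013). The annotation places Mrpl24 over part of Rrnad1. Which strand the counting used is not given in the sources used here, so reads of the pair cannot be told apart. Rrnad1 itself had 14.8 to 17.5 CPM in naive and 11.2 to 11.6 in Th0 cells. The same limit holds for other named members that overlap a counted gene. Among them are Mrpl18 (Tcp1), Mrpl14 (Tmem63b), Mrps18a (Rsph9), Mrpl49 (Syvn1), Mrpl44 (Wdfy1) and Mrps27 (6430562O15Rik). The 10 members that did not pass the test included Mrpl9 (75.6 ± 2.24 CPM in naive and 78.3 ± 4.89 in Th0; mean ± SD, n = 2) and Mrps5 (54.2 ± 0.66 and 60.4 ± 1.29 CPM).

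Other mitochondrial genes were read from lists of the pathway. Nuclear subunits of oxidative phosphorylation were higher in 68 of 78 cases and lower in 2, and protein import genes were higher in 24 of 25. Mitoribosome assembly factors were split, with 7 of 24 higher and 6 lower, and mitochondrial tRNA synthetases with 5 of 17 higher and 3 lower. Mitoribosomal proteins that do not carry an Mrp symbol were higher in 3 of 6 cases: Chchd1 (log2 0.92 ± 0.16), Gadd45gip1 (0.78 ± 0.14) and Aurkaip1 (0.51 ± 0.12). Dap3, the small-subunit GTP-binding protein, differed by 0.08 ± 0.08. Cytosolic ribosomal proteins went the other way, with 56 of 76 lower and 1 higher (median log2 -0.29). Myc, a driver of growth and ribosome synthesis, had 128 CPM in naive and 280 in Th0 cells (log2 1.10 ± 0.08). Summed cell cycle genes stood at 868 to 917 CPM in naive and 8966 to 9016 in Th0 cells. Their part in the rise of the members was not tested. Among regulators tied to the 3 promoter motifs, Nrf1 differed by 0.12 ± 0.09 and Yy1 by -0.09 ± 0.08, neither past the test, and Gabpa was lower by -0.26 ± 0.09 (adjusted p = 0.013).

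Across all 11287 genes the log2 difference between Th0 and naive cells had a Spearman correlation of -0.23 with exon length, and across the 76 members -0.07, both descriptions over genes that share libraries. With the trend on length removed from each library, the members' median was 0.41, with 51 higher and 4 lower. Mrps12 (0.04) and Mrps30 (0.16) then no longer passed. How far length, RNA quality or biology make this trend was not tested.

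**Figure D3:**
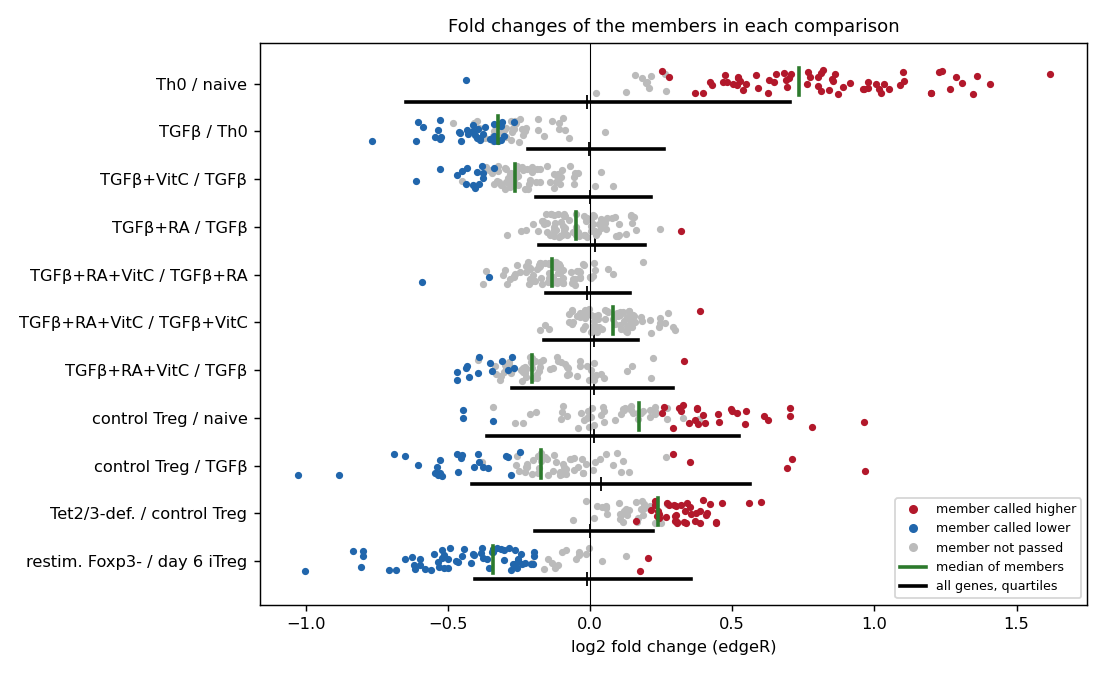
Log2 fold changes of the members in each of 11 comparisons (red called higher, blue called lower, grey not passed), with the median of the members in green and the quartiles and median of all tested genes in black beneath. The set lies to the right in Th0 against naive (median 0.74) and in Tet2/3-deficient against control Tregs (0.24), and to the left in restimulated Foxp3- cells (-0.34) and in TGFβ iTregs against Th0 (-0.33).

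TGFβ iTregs held less of the set than Th0 cells. Of the 76 members, 33 were lower and 0 higher, with a median log2 difference of -0.33, where 26.1% of all genes were called and 11.6% as lower. In 67 members both TGFβ libraries were below both Th0 libraries, against 30.0% of all genes. Mrps18b fell the most, from 58.3 and 56.8 CPM in Th0 to 35.4 and 33.7 in TGFβ iTregs (log2 -0.77 ± 0.10, adjusted p = 5.6e-05). Mrpl35 fell by 0.61 ± 0.09 on the log2 scale, Mrpl12 by 0.61 ± 0.15, Mrps28 by 0.59 ± 0.18 and Mrpl47 by 0.55 ± 0.14. Mrps18a, Mrps30, Mrps36 and Mrpl45 also fell, by 0.31 to 0.41. Mrpl10 stood at 81.3 and 85.1 CPM in Th0 and 86.7 and 89.7 in TGFβ iTregs, and its log2 difference of 0.05 ± 0.10 was the single positive one. The number of calls depended on the libraries: there were 6 without Th0 replicate 1, 8 without TGFβ replicate 1, 15 without TGFβ replicate 2 and 20 without Th0 replicate 2. In addition, fitting these 4 libraries alone gave 52, and removing the length trend gave 17, all of them lower. Summed cell cycle genes stood at 8966 to 9016 CPM in Th0 and 7330 to 7745 in TGFβ iTregs, and 13 of 20 of them were lower; their part in the result was not tested. Import genes were lower in 13 of 25 cases, oxidative phosphorylation subunits in 19 of 78 and cytosolic ribosomal proteins in 37 of 76. Myc did not pass (log2 0.02 ± 0.08).

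With vitamin C added to TGFβ a minority of the members was called lower. Of 76, 14 were called lower and 0 higher, with a median of -0.26. Of all genes 16.8% were called, 7.99% as lower and 8.84% as higher. Values of both VitC libraries lay below both TGFβ libraries in 54 members, against 27.5% of all genes, and above them in 1 member (34.4% of genes). Mrpl54, a mitochondria-specific protein of the large subunit, stood at 44.7 and 52.0 CPM with TGFβ and 31.6 and 32.6 with VitC added (log2 -0.61 ± 0.15, adjusted p = 0.013). Mrps22 fell by 0.53 ± 0.13, Mrpl12 by 0.47 ± 0.15 (adjusted p = 0.047), Mrpl18 by 0.45 ± 0.10, Mrps18b by 0.44 ± 0.10, Mrps12 by 0.43 ± 0.13 and Mrps36 by 0.38 ± 0.11. Of the followed members, Mrpl45 (-0.04 ± 0.09), Mrpl44 (-0.14 ± 0.12) and Mrpl10 (-0.21 ± 0.10) did not pass. The number of calls depended on the libraries and the tool: 0 members were called without VitC replicate 1, 1 without TGFβ replicate 2, 4 without TGFβ replicate 1 and 6 without VitC replicate 2, while the median ran from -0.33 to -0.19 in these 4 fits. With the length trend removed it was -0.14, with 12 lower members. DESeq2 called 8 and limma on log2(FPKM + 1) called 9. Import genes were lower in 10 of 25 cases and cell cycle genes in 15 of 20, with summed cell cycle CPM of 5626 to 6300 against 7330 to 7745.

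With RA present, adding vitamin C left 2 members lower and 0 higher, with a median of -0.13, where 7.54% of all genes were called, 3.22% as lower and 4.31% as higher. In 17 members both libraries with VitC lay below both without it, against 21.6% of all genes. Mrps18b stood at 38.5 and 39.5 CPM with TGFβ+RA and at 26.5 and 25.9 with VitC added (log2 -0.59 ± 0.10, adjusted p = 0.0022). The 2 pairs do not overlap and are tight. Mrps5, a small-subunit protein of the mRNA entry side, went from 47.3 and 51.9 CPM to 38.4 and 40.1 (-0.35 ± 0.10, adjusted p = 0.037), and DESeq2, the raw library totals and the 4 libraries fitted alone each left 1 call. Without RA replicate 1 there were 6 calls, and without RA replicate 2, both-supplement replicate 1 or both-supplement replicate 2 there was 1. The median was -0.0007 without RA replicate 2 and -0.26 without RA replicate 1, so this library pair sets its size. The comparisons of vitamin C without and with RA share no libraries, and 68 of 76 members had the same sign in both (89.5%, against 76.7% of all genes), 66 of them lower. Among all genes the same signs were split into 4451 lower and 4209 higher, so they are no matched background. As most members were lower in each comparison, much of this agreement follows from the shift of the set in each. The difference between the 2 vitamin C effects passed for 0 of 76 members and for 2 of 11287 genes (0.0177%). None of the members had an unadjusted p under 0.05 for that difference (the smallest was 0.065, for Mrps15), and DESeq2 and limma also called 0.

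Retinoic acid changed little in the set. Against TGFβ alone 1 member was higher and 0 lower, with a median of -0.05, where 16.5% of all genes were called, 7.19% as higher and 9.29% as lower. Libraries of the groups did not overlap in 6 members that were higher with RA (29.9% of all genes) and 6 that were lower (26.2%). The one was Mrpl24, at 44.5 and 50.4 CPM with TGFβ and 54.8 and 64.7 with RA added (log2 0.32 ± 0.10, adjusted p = 0.046). It lost the call with DESeq2, with other size factors and without either TGFβ library or RA replicate 2, with an adjusted p of up to 0.34. RA added to TGFβ and VitC gave Mrpl24 again as the single call (45.1 and 47.8 CPM to 58.7 and 63.1, log2 0.39 ± 0.10, adjusted p = 0.018), with a median of 0.08 for the set, where 15.1% of all genes were called and 5.81% as higher. In 22 members both libraries of the combination lay above both VitC libraries, against 28.7% of all genes. That call was lost without either VitC library or without replicate 2 of the combination. Rrnad1, its overlapping neighbour, stood at 9.30 to 11.9 CPM with TGFβ, 12.8 to 13.9 with RA added, 9.54 to 15.1 with VitC and 12.8 to 16.3 with both. Cell cycle genes were lower with RA in 19 of 20 cases (5456 to 5617 CPM against 7330 to 7745). Of the members 0 of 76 were called lower, and a relation between cell cycle genes and members was not tested.

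With both supplements against TGFβ alone, 13 members were lower and 1, Mrpl24 (0.33 ± 0.10), was higher, with a median of -0.20, where 37.5% of all genes were called, 19.2% as lower and 18.3% as higher. Mrpl42 and Mrps22 had the lowest values, at -0.47 ± 0.13 each, followed by Mrpl18 (-0.44 ± 0.10), Mrpl54 (-0.43 ± 0.15) and Mrps18b (-0.43 ± 0.10). The share of members called, 18.4%, was below that of all genes. In 38 members both libraries with both supplements lay below both TGFβ libraries, against 32.2% of all genes. In 6 members they lay above, against 38.9% of all genes. Leaving out 1 library gave 4 to 15 calls, with 4 without both-supplement replicate 1, 7 without TGFβ replicate 1 and 6 without TGFβ replicate 2, and limma on log2(FPKM + 1) gave 9.

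**Figure D4:**
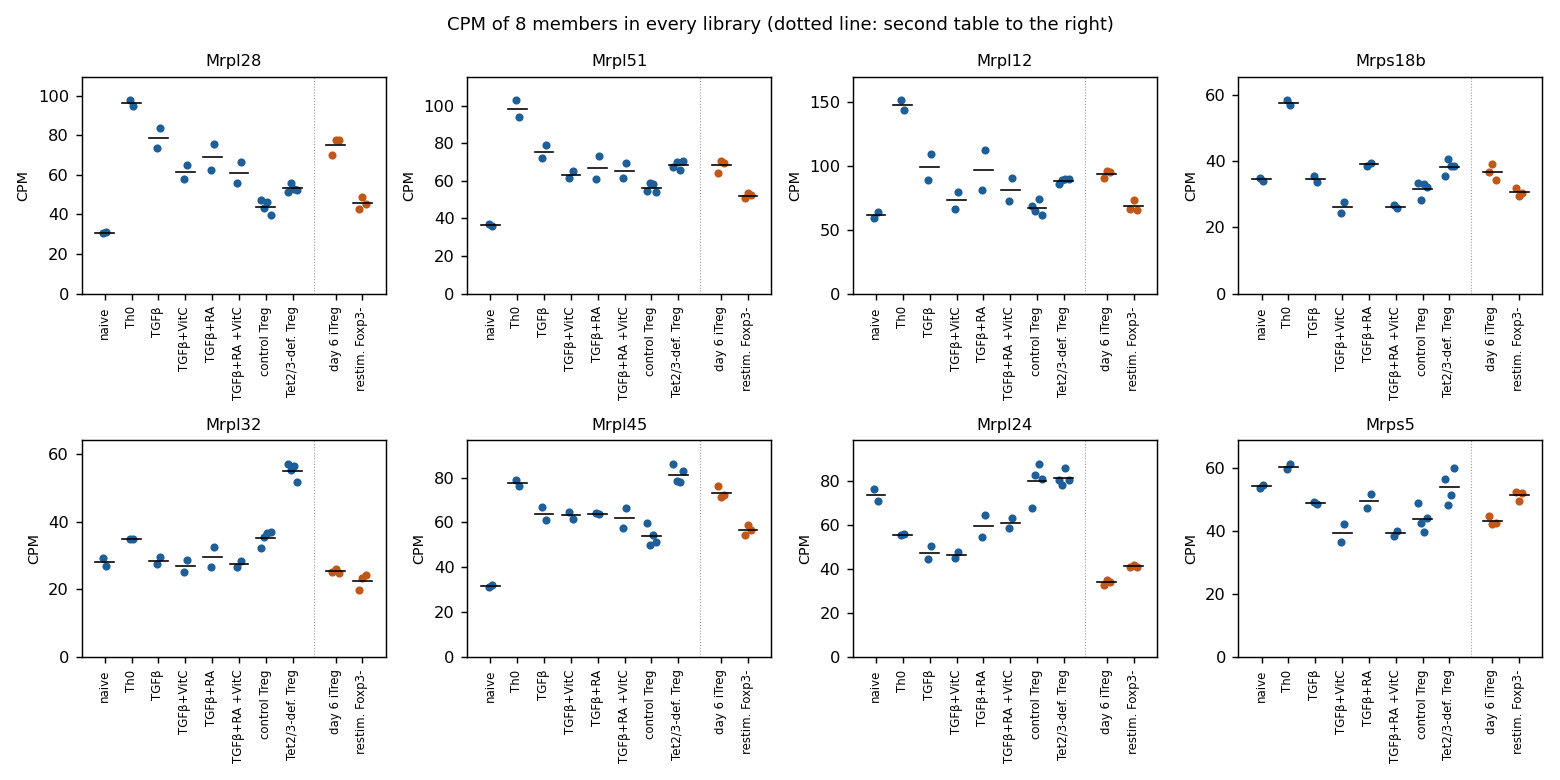
CPM of 8 members in every library, grouped by condition, with group means as lines; each axis starts at 0, and the second table stands right of the dotted line in orange. Mrpl28, Mrpl51 and Mrpl12 peak in Th0 cells, Mrps18b is low in both groups with VitC, Mrpl32 stands apart in Tet2/3-deficient Tregs, Mrpl24 is lower in Th0 than in naive cells, and Mrps5 is lower in control Tregs than in naive cells.

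In ex vivo control Tregs most of the called members were higher than in naive cells. Of 76 members 26 were called higher and 3 lower, with a median of 0.17. Of all genes 54.9% were called (28.6% as higher, 26.3% as lower), so the members' share of 38.2% was below the background. By CPM scaled to library totals, all control libraries lay above both naive libraries in 52 members, against 43.7% of all genes. They lay below both in 4 members, against 24.4% of all genes. The groups also differ in age (3 weeks against 5 to 6 weeks) and genotype, which cannot be told apart from cell type. Markers of other cells also differed: the B cell list summed to 2.12 to 3.01 CPM in naive cells (3 of 7 markers at 0) and 44.8 to 111 in control Tregs, the myeloid list to at most 15.3 (4 of 9 at 0) and 41.9 to 67.9, and the erythroid list to 1.11 to 2.38 (1 of 5 at 0) and 294 to 713. Their part in the result was not tested. Mrps6, a small-subunit protein with a bacterial counterpart, stood at 22.5 and 20.1 CPM in naive cells and at 42.7, 41.5, 52.2 and 46.7 in control Tregs, a log2 difference of 0.96 ± 0.13 (adjusted p = 0.00011). The annotation places Mrps6 across Slc5a3, which had 9.95 to 10.98 CPM in naive cells and 10.8 to 14.7 in control Tregs. Mrps11 was higher by 0.78 ± 0.13, Mrpl14 by 0.70 ± 0.17, Mrpl52 by 0.70 ± 0.12 and Mrpl45 by 0.63 ± 0.11. Mrps5 (-0.45 ± 0.10), Mrpl49 (-0.45 ± 0.10) and Mrps26 (-0.34 ± 0.12) were lower. Leaving out naive replicate 1 gave 11 calls and naive replicate 2 gave 18. This comparison also depended on scaling: with raw library totals the median of all genes rose from 0.01 to 0.15, 66.0% of all called genes were higher and not 52.1%, and the members split into 41 higher and 2 lower. Without the length trend the split was 16 higher and 7 lower.

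Against TGFβ iTregs, control Tregs had 24 members lower and 5 higher, with a median of -0.17, where 61.4% of all genes were called, 29.1% as lower and 32.3% as higher. The share of members called was below that of all genes, and the share called lower was near theirs. Age (3 weeks against 5 to 6 weeks), genotype and culture also differ and cannot be told apart from cell type. The B cell list summed to 3.05 to 3.47 CPM in TGFβ iTregs and 44.8 to 111 in control Tregs. The myeloid list summed to 2.65 to 3.43 and 41.9 to 67.9 CPM, and the erythroid list to 130 to 179 and 294 to 713. Their part in the result was not tested. Mrps15 was the lowest, with 70.4 ± 1.15 CPM in TGFβ iTregs (mean ± SD, n = 2) and 35.6 ± 2.51 in control Tregs (n = 4), a log2 difference of -1.03 ± 0.10 (adjusted p = 1.1e-05). Mrpl28 (-0.88 ± 0.10), Mrps10 (-0.69 ± 0.13), Mrpl18 (-0.65 ± 0.11) and Mrpl12 (-0.61 ± 0.11) followed. The 5 that were higher were Mrps6 (0.97 ± 0.14), Mrpl24 (0.71 ± 0.12), Mrpl52 (0.69 ± 0.10), Mrps16 (0.35 ± 0.10) and Mrpl9 (0.29 ± 0.08). Myc was lower in control Tregs by 1.17 ± 0.07 on the log2 scale and all 20 cell cycle genes were lower. Without TGFβ replicate 2 there were 14 calls.

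Tregs lacking Tet2 and Tet3 held more of the set than control Tregs. Of 76 members 39 rose and 0 fell, with a median log2 difference of 0.24 (1.18-fold), where 32.5% of all genes were called, 16.7% as higher, with a median of 0.00. In 51 members all 4 deficient libraries lay above all 4 controls, against 21.0% of all genes, and in 0 members below (12.8% of genes). By class, 20 of 30 bacterial-type and 9 of 19 mitochondria-specific large-subunit members rose, and 6 of 16 and 3 of 10 small-subunit members; the medians of these classes were 0.29, 0.23, 0.20 and 0.19. Leaving out 1 library at a time gave 26 calls (without control library S2) to 39, and removing the length trend left 30 higher and 0 lower with a median of 0.17.

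Mrpl32, a protein known to require cleavage by the m-AAA protease before it joins the ribosome, stood at 32.2, 35.5, 36.5 and 36.9 CPM in controls and at 57.1, 55.1, 56.3 and 51.7 in deficient libraries. All 4 deficient values exceed all controls, and its log2 difference of 0.60 ± 0.07 (adjusted p = 0.00011) was the highest of the set. In Th0 against naive cells it was also called higher, by 0.28 ± 0.12 (adjusted p = 0.046). Mrpl45, the membrane anchor, stood at 59.7, 49.8, 54.4 and 51.2 CPM in controls and at 86.2, 78.3, 78.0 and 82.8 in deficient libraries (0.56 ± 0.07, adjusted p = 0.00022). Mrpl42 had 49.6 ± 3.55 CPM in controls (mean ± SD, n = 4) and 70.3 ± 4.88 in deficient cells (0.46 ± 0.08). Mrps15 differed by 0.44 ± 0.08 and Mrps27, an RNA-binding pentatricopeptide repeat protein, by 0.44 ± 0.08. Of the stalk, Mrpl11 rose by 0.41 ± 0.08 and Mrpl12 by 0.35 ± 0.07, while Mrpl10 stood at 89.0, 86.6, 91.6 and 82.2 CPM in controls and at 82.9, 92.5, 93.8 and 95.7 in deficient libraries (0.02 ± 0.07) with overlapping libraries. Among the S18 paralogs, Mrps18a (0.27 ± 0.09, adjusted p = 0.037) and Mrps18b (0.24 ± 0.08, adjusted p = 0.040) passed and Mrps18c did not (0.17 ± 0.07); the first 2 lost their calls in most leave-one-out fits, with adjusted p of up to 0.21 and 0.18. Mrps36 rose by 0.37 ± 0.09 and Mrps30 by 0.24 ± 0.06. Mrpl44 (0.05 ± 0.07), Mrps12 (0.12 ± 0.09) and Mrpl24 (-0.01 ± 0.08) did not pass.

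Neighbouring pathways held many genes called higher in some lists and few in others. Oxidative phosphorylation subunits were higher in 40 of 78 cases and lower in 0, import genes in 14 of 25, translation factors in 7 of 15 and tRNA synthetases in 6 of 17 with 1 lower. Cytosolic ribosomal proteins were higher in 2 of 76 cases, with a median of 0.01. Among the other mitoribosomal proteins, Chchd1 (0.27 ± 0.09) and Dap3 (0.17 ± 0.05) rose. Myc had 127 to 136 CPM in controls and 182 to 205 in deficient libraries (log2 0.50 ± 0.06, adjusted p = 9.9e-05), and summed cell cycle genes 1275 to 2333 against 3289 to 3558 CPM, with 10 of 20 higher. Markers of other cells moved too: all 9 myeloid markers were detected in both groups, summing to 41.9 to 67.9 CPM in controls and 62.7 to 133 in deficient libraries, while 7 B cell markers summed to 44.8 to 111 and 43.7 to 62.7 and the 5 erythroid markers in the table to 294 to 713 and 198 to 408; these ranges overlap. The sums of 2 CD8 T cell markers (24.8 to 28.5 CPM in controls, 3.37 to 5.30 in deficient libraries) and of 4 NK cell markers (3.71 to 6.06 and 8.43 to 12.4, with 1 of the 4 at 0 in all deficient libraries) did not overlap. The part of cell cycle, Myc or other cells in the rise of the members was not tested.

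The rise in Tet2/3-deficient Tregs was compared with that of activated Th0 cells, which shares no library with it. Of the 39 members higher in deficient Tregs, 37 (94.9%) were also higher in Th0 cells, and these are 56.9% of the 65 that were higher there. Over all 10920 genes tested in both, 73.9% of those higher in deficient Tregs were also higher in Th0 cells, and 34.2% the other way round. The 2 not called in Th0 cells were Mrps5 and Mrpl9. Signs were the same in 75 of 76 members (98.7%, against 69.3% of all genes). Of the 76 members, 65 were called higher in Th0 cells and 74 had positive differences in both comparisons. Most of this overlap therefore follows from the rise of the set in each comparison, and all genes are no matched background. Whether single members moved alike was not tested.

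**Figure D5:**
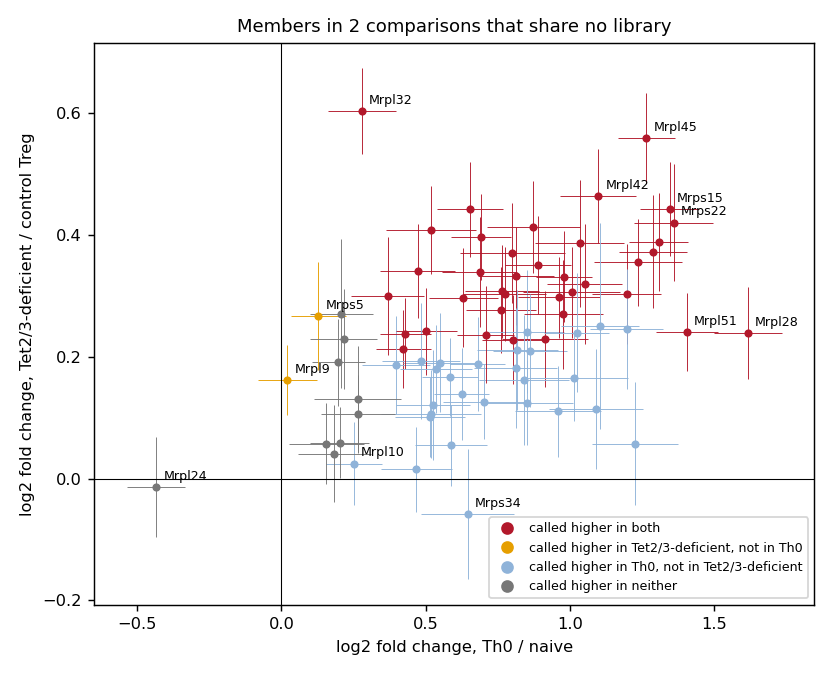
Each member's log2 fold change in Th0 against naive cells (horizontal) and in Tet2/3-deficient against control Tregs (vertical), with standard errors as bars. 37 members are called higher in both (red); Mrpl32 and Mrpl45 lie highest at 0.60 and 0.56, Mrpl28 lies farthest right at 1.62, and Mrpl24 lies apart at the left.

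In the second table, restimulated Foxp3- cells held less of the set than day 6 iTregs. Of 77 members 60 fell and 2 rose, with a median of -0.34, where 68.8% of all genes were called and 35.2% as lower. In 54 members all 3 restimulated libraries lay below all 3 iTreg libraries, against 32.4% of all genes. Mrpl54 stood at 45.6, 53.3 and 57.1 CPM in day 6 iTregs and at 26.8, 27.98 and 27.5 after restimulation (log2 -1.004 ± 0.08, adjusted p = 6.9e-08), a fall to a narrow range. Mrpl14, the counterpart of bacterial L14, had 34.2 ± 1.36 CPM and then 20.2 ± 0.33 (mean ± SD, n = 3; -0.83 ± 0.07). Mrpl52 (-0.81 ± 0.07), Mrps11 (-0.80 ± 0.09) and Mrpl28 (-0.80 ± 0.07) followed. Mrpl12 fell by 0.54 ± 0.06, Mrpl10 by 0.33 ± 0.06, Mrpl11 by 0.23 ± 0.08, Mrpl45 by 0.44 ± 0.06, Mrps18a by 0.71 ± 0.08, Mrps18c by 0.52 ± 0.10 and Mrps36 by 0.60 ± 0.08. The 2 that rose were Mrpl24, from 33.0, 34.96 and 33.9 CPM to 41.1, 41.8 and 41.1 (0.20 ± 0.06, adjusted p = 0.011), and Mrps5, from 44.9, 42.0 and 42.7 CPM to 52.5, 49.6 and 52.2 (0.17 ± 0.06, adjusted p = 0.018). The values of neither gene overlap between the groups, though Mrps5 lost its call with DESeq2 and without day 6 replicate 2 or restimulated replicate 1. Rrnad1 had 9.27 to 11.2 CPM in day 6 iTregs and 7.81 to 8.68 after restimulation, opposite to Mrpl24. Mrpl58, a release factor built into the large subunit, had 46.6 ± 1.13 and 47.7 ± 0.11 CPM (-0.05 ± 0.06).

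Here exon length moved most strongly with the result. Over all genes the log2 difference had a Spearman correlation of 0.33 with exon length, and over the 77 members 0.40. Over all genes it was nearly as high for TGFβ iTregs against Th0 cells (0.31) and for vitamin C added to TGFβ (0.30). Over the members of the first table it was 0.27 and -0.05 in these 2 comparisons. The count-weighted mean of log2 exon length was 11.31 to 11.38 in day 6 libraries and 11.50 to 11.53 after restimulation. With the length trend removed, 32 members were lower and 14 higher, with a median of -0.13. Mrps12 then stood at 0.20 in place of -0.30, Mrpl44 at 0.18 in place of -0.01, and Mrps18b (0.0097) and Mrps30 (0.0032) changed sign; Mrps18c and Mrps36 kept their sign and lost their calls. Cytosolic ribosomal proteins, which are short as well, were lower in 73 of 75 cases, oxidative phosphorylation subunits in 70 of 79 with 2 higher, and import genes in 17 of 25. All 5 other mitoribosomal proteins were lower, led by Dap3 (log2 -1.02 ± 0.07, from 89.98 to 46.7 CPM) and Gadd45gip1 (-0.97 ± 0.07). In contrast, assembly factors were lower in 2 of 24 cases and higher in 5. Gabpa (0.70 ± 0.06) and Yy1 (0.47 ± 0.06) rose. Summed cell cycle genes stood at 4307 to 5225 CPM in day 6 iTregs and at 2912 to 3722 in restimulated cells. Their part in the fall of the members was not tested. The restimulated cells also differ from day 6 iTregs in the Foxp3 sort, which cannot be told apart from restimulation.

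Across the 11 comparisons of groups, Mrpl28 was called most often, in 8, and Mrpl18, Mrps15, Mrps18b, Mrps22, Mrps36 and Mrps5 were called in 7. Mrps9 and Mrps31 were called in 0. Several of the 11 comparisons share libraries, the TGFβ pair among them, so these and the later counts of calls are not counts of independent repeats. Mrps31 stood between 18.1 and 24.7 CPM in all 20 libraries of the first table, and Mrps9 between 41.2 and 61.8. Of the 65 members that were higher in Th0 than in naive cells, 56 (86.2%) were lower in restimulated cells, against 55.5% of all genes. Of the 76 members tested in both, 60 were lower in restimulated cells whatever their call in Th0 cells. Most of this share therefore follows from the fall of the set. Mrpl24 was lower in Th0 cells and higher in 5 comparisons in which most members fell or were not called. Mrps5 was called with most of the called members in 5 of its 7 calls: it was lower in TGFβ iTregs than in Th0 cells and in 3 comparisons with vitamin C, and higher in Tet2/3-deficient Tregs. Its other calls, lower in control Tregs than in naive cells and higher in restimulated cells, went against most.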

How the data were processed

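Polyadenylated RNA of mouse T cells was sequenced in 26 libraries, with a stranded mRNA kit per the labels' protocols. Reads were trimmed with Trim Galore 0.4.2 and mapped to mm9 with TopHat2 2.1.1, and edgeR 3.26.6 was among the tools, per the submitters' processing notes. The counting tool, its strand setting and the annotation are not given in the sources used here. The authors deposited raw counts per gene and FPKM values in 2 tables; the 2 were not pooled. The deposited FPKM equal the counts scaled by exon length and library total to within rounding.

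Counts were tested with edgeR 4.0.16 (quasi-likelihood test, TMM scaling, robust fit, genes kept by filterByExpr) and p-values were adjusted over all genes tested by the Benjamini-Hochberg method, with 0.05 as the threshold. Naive, Th0 and the 4 iTreg groups were fitted together (12 libraries), and each remaining comparison was fitted on its own libraries. CPM values are counts scaled by the library total. Log2 fold changes carry standard errors. Alternatives were DESeq2 1.42.0, RLE size factors, raw library totals, no count filter, limma 3.58.1 on the deposited FPKM as log2(FPKM + 1), a replicate block, other sets of libraries, leaving out each library, and, chosen after seeing the data, offsets that remove each library's trend on exon length. The procedure was also run on simulated data with planted differences, for some comparisons but none that added vitamin C or retinoic acid. No result above rests on that run.

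Named members were, per comparison, the 5 called members with the highest and the 5 with the lowest fold change, those called against the main direction, the 5 highest and 5 lowest by FPKM, and 11 members followed throughout. Mrpl32 in Th0 cells, the uncalled Mrpl9 and Mrps5 in Th0 cells, Mrpl58, Mrps9 and Mrps31 were named after their values were seen where the rule does not cover them. The members, lists and comparisons were chosen with earlier results of these data known. Messenger RNAs encoded by mitochondrial DNA were not analysed here.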

Additional observations from a re-analysis of the deposited data

Results flagged for a closer look

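Among the 32 groups of 4 libraries checked (15 members and their sum in both Treg groups), 2 held a library far from the others by Dixon's criterion for 4 samples, and chance alone flags about 1 in 20. Mrpl42 stood at 54.9 CPM in control library S3, while the other 3 controls lay between 47.5 and 48.66. Mrps36 stood at 28.52 CPM in Tet2/3-deficient library S8, while the other 3 lay between 34.44 and 35.37. Both genes were called higher in Tet2/3-deficient Tregs.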

How the results depend on the processing

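Of 179 named results, 96 passed the test; 43 of these lost the call under at least 1 alternative, 12 others gained one and 4 changed sign. The counts of called members moved by over 1.5 times as follows, and the cause was not tested. TGFβ iTregs against Th0 cells had 33 calls, 55 with a replicate block, 52 with the 4 libraries alone, 17 with length offsets and 6 to 20 without 1 library. Vitamin C added to TGFβ had 14, then 8 with DESeq2, 9 with limma, 27 with a replicate block and 0 to 6 without 1 library. Retinoic acid added to TGFβ had 1, then 0 with DESeq2, with RLE factors and with the 4 libraries alone, 2 with length offsets and 0 to 1 without 1 library. Vitamin C added to TGFβ and RA had 2, then 1 with DESeq2, raw totals or the 4 libraries alone, and 1 to 6 without 1 library. RA added to TGFβ and VitC had 1, and 0 to 1 without 1 library. Both supplements had 14, then 9 with limma, 24 with a replicate block and 4 to 15 without 1 library. Control Tregs against naive cells had 29, then 45 with limma and 11 to 36 without 1 library, and against TGFβ iTregs 29, and 14 to 32 without 1 library. The counts for Th0 against naive cells, Tet2/3-deficient Tregs and restimulated cells stayed within 1.5 times with both directions added together, but by direction the restimulated split went from 60 lower and 2 higher to 32 and 14 with length offsets, and the Th0 split from 65 higher and 1 lower to 51 and 4. Some medians changed sign when a library was left out: for RA added to TGFβ they ran from -0.19 to 0.0458 (0.0458 without RA replicate 1, 0.00746 without TGFβ replicate 2), and for RA added to TGFβ and VitC from -0.00922 (without replicate 2 of both supplements) to 0.136. Other medians moved by over 1.5 times and kept their sign, among them, with length offsets, 0.41 for Th0 against naive cells, -0.21 for TGFβ against Th0, -0.14 for vitamin C added to TGFβ, 0.0755 for control Tregs against naive cells and -0.13 for restimulated cells, and, for control Tregs against naive cells, 0.30 with limma and 0.31 with raw totals; without RA replicate 2 the median difference between the vitamin C effects was 0.27 and not 0.11. With length offsets Mrps12 (0.195), Mrps18b (0.00972), Mrps30 (0.0032) and Mrpl44 (0.179) changed sign in restimulated cells.

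Same-numbered libraries of the 4 iTreg groups deviated together (correlation 0.22 to 0.42), and those of day 6 and restimulated cells less so (0.078, 0.097 and 0.197), each best with its own number. No label says that a number marks a shared batch, so this is a hint from the data and not the design. For the ex vivo Treg comparisons alone, no block could be fitted, because the Treg columns carry no replicate number from the labels. With 2 libraries a group, small differences are hard to detect, and counting noise is largest for the low members.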
